A study of Mus musculus with 16 samples.

Results

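The 10 genes described here encode lysosomal proteases: the cysteine cathepsins Ctsb, Ctsc, Ctsh, Ctsk, Ctsl, Ctss and Ctsz, the aspartic protease Ctsd, the serine carboxypeptidase Ctsa and the asparaginyl endopeptidase Lgmn (legumain). They are 10 of the 49568 gene symbols in the count table and were looked up by symbol. Ctsc was chosen by a measured value, its rise after injury in C57 tendons. Its values in that contrast, and in the other contrasts that use C57 libraries, are therefore given as a description without a test. No measured value is given for the choice of the other 9, but the list was chosen with earlier results of these data known.

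Lysosomal proteases are made as inactive proenzymes, sorted to the acidic endosomal and lysosomal compartments, and activated there by cleavage. They break down proteins taken up by endocytosis and autophagy, trim antigens for presentation in antigen-presenting cells, and, when secreted, can cut collagen, elastin and proteoglycans of the extracellular matrix. Macrophages and osteoclasts are rich in these enzymes, and tendon fibroblasts express several of them.

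RNA was sequenced from single deep digital flexor tendons of male mice aged 9 to 11 weeks, of the strains C57BL/6J (C57) and MRL/MpJ (MRL), the latter known for healing several tissues with little scarring. Each strain gave 4 uninjured tendons and 4 tendons at 7 days post-injury (dpi), after a laceration through 50% of the tendon width in a hind-paw digit, the third. No other genotype is given for either strain. The mice were operated on under ketamine and xylazine and received buprenorphine for pain. The tendons came from 4 animals per group, and the tissue around them was not removed. p-Values therefore measure the spread between such animals. The design asks how the tendon responds to injury in each strain and whether the responses differ. In bulk RNA, fewer cells of a type and less RNA per cell cannot be told apart.

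The 16 libraries held between 12552424 and 23741648 counts on genes, and the 10 proteases together took between 0.282% and 0.815% of them. The floor of 3 counts corresponded to at most 0.239 CPM (counts scaled by the library size), far below the level of each of the 10 genes in each library. All 10 tenocyte marker genes were detected, and they summed to between 16420 and 74770 CPM. The list includes the collagen genes Col1a1 and Col1a2, and the sum was not a test of tendon identity. It was 16420 CPM in C57 uninjured replicate 4 and 18130 CPM in BI-181, which also held transcripts of other tissues. The library labelled C57 uninjured replicate 4 stood apart: 9.15% of its counts fell on 12 epidermal marker genes, against at most 0.101% in the other libraries. Its Spearman correlation across genes with its own group was between 0.80 and 0.83. Relative to the mean of the other 3 uninjured C57 libraries, 8 of the 10 proteases were low in it (0.327-fold for Ctsk to 0.803-fold for Ctsh), while Ctsa was 3.32-fold and Ctsd 1.85-fold higher. BI-181, an injured C57 library, had 5.8% of its counts on 12 skeletal muscle marker genes. For the proteases in C57, values without these libraries are given where a call or a sign changed.

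Promoter sequences, from 250 bases before to 50 bases after each start site, were taken from RefSeq on GRCm38.p6, in which 8 of the 10 genes matched. Ctsb and Ctsh had no entry. The letters CACGTG, the core bound by TFEB and its relatives at many lysosomal genes, were found in 4 of the 8 genes (Ctsa, Ctsd, Ctsl and Lgmn) and in 8.09% of all 27025 genes with a promoter. The longer form TCACGTGA, which contains CACGTG, was found in Ctsa and Ctsd and in 1.12% of all genes. The letters GAGGAAGT, of the kind bound by the myeloid factor PU.1, were found in Ctsc and Ctss and in 3.69% of all genes. Both strands were searched. A match describes these letters and is not evidence of binding. The stretches of 100 bases below are shown as those of the genes that hold GAGGAAGT (Ctsc and Ctss) or TCACGTGA (Ctsa and Ctsd). Of the 4 genes with CACGTG, Ctsa, Ctsd and Ctsl had log2 fold changes of -0.54, 0.31 and -0.19 in C57, and Lgmn had one of 1.60. They are written 5′ to 3′ along the gene, with CACGTG, or GAGGAAGT read on the opposite strand, in capitals.
Ctsc, chr7:88277862-88277961, plus strand, ending 124 bases before the start site: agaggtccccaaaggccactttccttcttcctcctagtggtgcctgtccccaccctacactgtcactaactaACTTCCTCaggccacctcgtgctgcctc
Ctss, chr3:95526698-95526797, plus strand, ending 12 bases past the start site: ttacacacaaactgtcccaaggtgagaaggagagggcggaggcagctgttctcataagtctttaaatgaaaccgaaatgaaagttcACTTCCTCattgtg
Ctsa, chr2:164833685-164833784, plus strand, inside the annotated gene, ending 12 bases past the downstream one of its RefSeq start sites (the window at the upstream one held no match): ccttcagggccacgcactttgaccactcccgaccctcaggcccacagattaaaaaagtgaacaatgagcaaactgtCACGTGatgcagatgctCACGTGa
Ctsd, chr7:142387900-142387999, minus strand, ending 73 bases before the start site: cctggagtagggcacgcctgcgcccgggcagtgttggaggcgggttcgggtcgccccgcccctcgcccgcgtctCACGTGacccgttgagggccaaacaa

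After injury, Ctss and Ctsh rose in C57 tendons, and Ctsc, Ctss and Ctsk rose in MRL tendons. A gene was called when edgeR's quasi-likelihood test gave a Benjamini-Hochberg adjusted p-value under 0.05 over all genes tested and the absolute log2 fold change exceeded 1. In C57, 2 of the other 9 proteases were called higher, against 0.908% of the 14424 genes tested, and none was called lower. In 6 of these 9 the injured libraries all lay above the uninjured ones, which held for 7.42% of all genes tested. The median log2 fold change of the 9 genes was 0.97, and that of all genes was -0.05. In MRL, 3 of 10 proteases were called higher, against 5.25% of the 14274 genes tested, and the injured libraries lay wholly above the uninjured ones for 6 of 10, against 13.5% of all genes. The median log2 fold change was 0.78 for the 10 genes and -0.03 for all genes. These MRL values include Ctsc, which was chosen for its rise after the same injury in C57. Of the other 9, the genes called in MRL were Ctss and Ctsk. The proteases were chosen with earlier results of these data known, so the comparisons with all genes are a description.

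The C57 calls depended on the libraries used. Without C57 uninjured replicate 4, 4 of the 9 proteases were called (Ctsh, Ctsk, Ctss and Lgmn), against 3.5% of all genes called higher, and without BI-181 the calls were again Ctsh and Ctss. Without any 1 of C57 uninjured replicates 1, 2 or 3, or of BI-183, BI-184 or BI-185, none of the 9 was called, and the adjusted p-values by the same edgeR test were between 0.0548 and 0.0778 for Ctss and between 0.0701 and 0.122 for Ctsh. In these 6 fits between 10 and 38 genes were called in all, against 155 with 8 libraries. DESeq2 called 5 of the 9 (Ctsb, Ctsh, Ctsk, Ctss and Lgmn), and 2.57% of all genes higher. In MRL the calls of Ctsc, Ctss and Ctsk were retained in each of the 8 fits without 1 library.

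**Figure D1:**
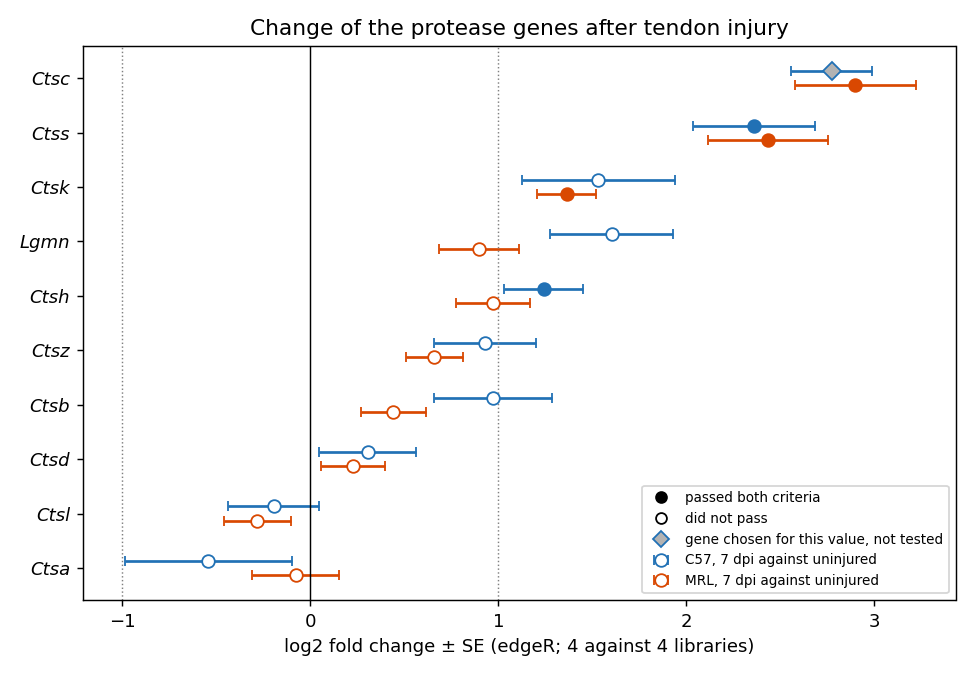
Log2 fold change of each protease gene at 7 dpi against uninjured tendon, with its SE, in C57 (blue) and MRL (orange), from 4 against 4 libraries. Filled circles passed both criteria, open circles did not, and the grey diamond is Ctsc in C57, which was chosen for this value; Ctsl and Ctsa lie below 0 in both strains.

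Ctsc, on chromosome 7 from 88278085 to 88310888 of GRCm38, encodes dipeptidyl peptidase I, which removes dipeptides from the N-terminus of proteins and activates the granule serine proteases of neutrophils, mast cells and cytotoxic lymphocytes. In uninjured C57 tendons it was at 43.25, 57.59, 43.12 and 36.06 CPM in replicates 1 to 4, and at 261.1 (BI-181), 408.2 (BI-183), 295.7 (BI-184) and 304.5 CPM (BI-185) in the injured libraries. The lowest injured library was thus above the highest uninjured one, and the log2 fold change was 2.77 ± 0.22 (SE), the value for which the gene was chosen. In MRL it was at 19.68, 17.81, 36.17 and 28.53 CPM in the uninjured replicates 1 to 4, and at 257.4 (BI-270), 111.6 (BI-272), 155.5 (BI-274) and 233.5 CPM (BI-275) in the injured libraries. The MRL groups did not overlap either. Ctsc rose by 2.90 ± 0.32 (SE, log2; adjusted p = 0.00119, edgeR), and its log2 fold change stayed between 2.69 and 3.10 when any 1 of the 8 MRL libraries was left out.

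Most granule proteases that Ctsc activates were near 0 in these libraries. Of 11 such genes only 4 passed edgeR's expression filter in C57 and 3 in MRL, and none was called by edgeR. DESeq2 called 3 of 10 in C57 and none in MRL. In C57, edgeR called 2 of 4 without BI-184, and 1 of 4 with RLE factors or with total counts in place of TMM. The neutrophil proteases Elane, Prtn3 and Ctsg did not exceed 18 counts in any library, and the cytotoxic Gzmb did not exceed 15. The mast cell chymase Cma1 averaged 3.15 CPM in uninjured and 49.4 CPM in injured C57 tendons (log2 fold change 3.92 ± 0.78, adjusted p = 0.053, edgeR), and 5.73 and 4.47 CPM in the MRL groups (adjusted p = 0.897). The 7 mast cell markers summed to between 11.02 and 290.6 CPM in the injured C57 libraries and to between 0.21 and 62.4 CPM in the injured MRL libraries. BI-184 was the lowest of the injured C57 libraries in this sum. All 6 mast cell markers tested in C57 had positive log2 fold changes, with a median of 3.26. None was called by edgeR, 1 of 6 was with RLE factors or total counts, 2 of 7 were without BI-184, and 4 of 7 were by DESeq2. The median of the 3 mast cell markers tested in MRL was -0.48 (none called by edgeR, 1 of 7 by DESeq2). Their part in the results was not tested.

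Ctss, on chromosome 3 from 95526786 to 95556403 and adjacent to Ctsk, encodes an elastolytic cathepsin that remains active at neutral pH and cuts the invariant chain from MHC class II molecules. It was at 155.1, 146.7, 137.3 and 62.1 CPM in the uninjured C57 replicates 1 to 4, and at 416.3 (BI-181), 763.9 (BI-183), 796.9 (BI-184) and 676.1 CPM (BI-185) in the injured libraries. BI-181 was the lowest injured library but still exceeded the highest uninjured one. The increase was 2.36 ± 0.33 on the log2 scale (SE; adjusted p = 0.0163, edgeR), with the limits given above, and 2.14 without C57 uninjured replicate 4. In MRL the uninjured replicates 1 to 4 were at 76.21, 116, 112 and 98.51 CPM, and the injured libraries were at 816.1 (BI-270), 282.5 (BI-272), 401.3 (BI-274) and 661.8 CPM (BI-275). The injured MRL libraries spread widely but none reached the uninjured ones. Ctss rose by 2.43 ± 0.32 there (log2, SE; adjusted p = 0.00209, edgeR).

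Genes of class II presentation, which Ctss serves in antigen-presenting cells and Ctsl in the thymus, were called higher in 2 of 10 tested in C57 and in 8 of 9 in MRL. Over all genes tested, 0.908% were called higher in C57 and 5.25% in MRL. The median log2 fold change of the class II genes was 2.48 in C57 and 4.26 in MRL. H2-DMb1, a subunit of the peptide exchange factor, rose by 4.22 ± 0.40 in C57 (adjusted p = 0.00622, edgeR) and by 4.06 ± 0.54 in MRL (adjusted p = 0.00231). H2-Ab1, a class II β chain, rose by 2.55 ± 0.48 in C57 (adjusted p = 0.0467, edgeR). The invariant chain gene Cd74, the substrate of Ctss, averaged 114.4 CPM in uninjured and 631.7 CPM in injured C57 tendons (adjusted p = 0.126). In MRL its mean was 27.53 and then 782.5 CPM, a rise of 4.84 ± 0.61 (adjusted p = 0.00184, edgeR). H2-DMb2, with a rise of 5.17 ± 0.80 (adjusted p = 0.00416, edgeR), and H2-Aa, with one of 4.69 ± 0.76 (adjusted p = 0.00653), were the other leading members in MRL, where H2-Ab1 rose by 4.81 ± 0.89 (adjusted p = 0.0121, edgeR). Without C57 uninjured replicate 4, 7 of the 10 genes tested in C57 were called, and 1 was when any 1 of the other 7 C57 libraries was left out. DESeq2 called 8 of 11 in C57. In MRL the count was 7 or 8 when any 1 library was left out.

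**Figure D2:**
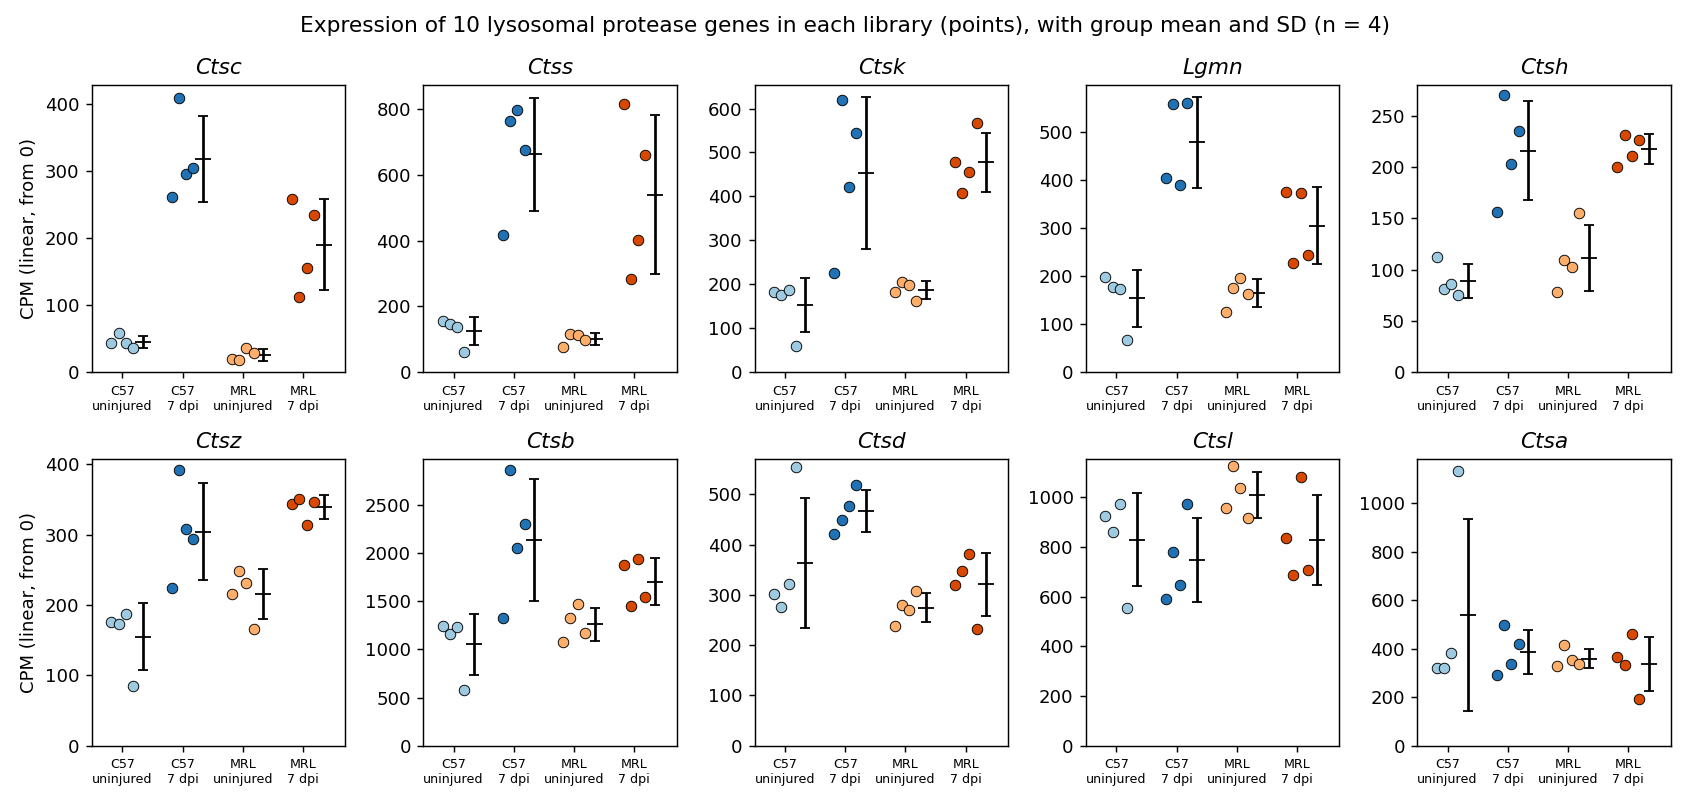
CPM of each protease gene in every library (points, linear axes from 0), by strain and injury, with the group mean and SD (n = 4) beside them. For Ctsc, Ctss, Ctsk, Lgmn, Ctsh and Ctsz the injured points lie above all uninjured points of the same strain, and the uninjured C57 point far from its group in Ctsa, Ctsb, Ctsd, Ctsk and Ctsz is replicate 4.

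Ctsk, on chromosome 3 from 95499256 to 95509362, encodes the cathepsin that cuts triple-helical collagen and by which osteoclasts resorb bone matrix. In C57 it was at 182.9, 176.4, 187.6 and 59.55 CPM in the uninjured replicates 1 to 4, and at 225.4 (BI-181), 620 (BI-183), 422.5 (BI-184) and 544.9 CPM (BI-185) in the injured libraries. The groups did not overlap, but the injured libraries spread widely and uninjured replicate 4 lay far below the other uninjured libraries. The log2 fold change of 1.53 ± 0.41 (SE) did not pass the test (adjusted p = 0.127, edgeR), whereas without C57 uninjured replicate 4 it was 1.27 and did (adjusted p = 0.0369). Without BI-181 it was 1.79 (adjusted p = 0.095). In MRL the uninjured replicates 1 to 4 were at 182, 205.4, 198.3 and 160.8 CPM, and the injured libraries were at 479.2 (BI-270), 407.7 (BI-272), 456.3 (BI-274) and 567 CPM (BI-275). Both MRL groups were tight and well separated, and Ctsk rose by 1.36 ± 0.16 (log2, SE; adjusted p = 0.0013, edgeR).

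Over all genes tested, 0.908% were called higher in C57 and 5.25% in MRL. The 12 genes of collagens, elastin and other matrix proteins that these proteases can cut had median log2 fold changes of 0.61 and 0.80. Of them, none was called in C57 and 4 were called higher in MRL. These were Acan (the proteoglycan aggrecan; 1.91 ± 0.52, adjusted p = 0.0421, edgeR), Fn1 (fibronectin; 1.68 ± 0.41, adjusted p = 0.0277), Col5a1 (1.53 ± 0.25, adjusted p = 0.00524) and Col3a1 (1.15 ± 0.31, adjusted p = 0.0405), the last pair being fibrillar collagens. Elastin (Eln) averaged 24.37 CPM before and 323.7 CPM after injury in C57 (adjusted p = 0.0568, edgeR), and 53.02 and 42.63 CPM in MRL (adjusted p = 0.764). In C57, 2 of the 12 were called higher without uninjured replicate 4 and with all 16 libraries in one fit, and DESeq2 called 3 higher and 1 lower. In MRL, 1 of the 12 was called lower without uninjured replicate 4, without BI-274 and by DESeq2. The MRL count of 4 was 1 without uninjured replicate 1, 2 or 3 or BI-272, 2 without uninjured replicate 4 or BI-275, and 2 with all 16 libraries in one fit. Of 10 osteoclast markers, 7 were tested in each strain. None was called in C57 (1 of 8 without uninjured replicate 4 or with all 16 libraries in one fit, 1 of 7 with RLE factors, 2 of 10 by DESeq2), and Acp5 and Dcstamp were called higher in MRL. The MRL count was 1 without uninjured replicate 1 or BI-272, 0 without uninjured replicate 2, uninjured replicate 3 or BI-275, 0 with all 16 libraries in one fit, and 4 of 9 by DESeq2. The calcitonin receptor Calcr did not exceed 3 counts in any library, and Acp5, the tartrate-resistant phosphatase of osteoclasts and some macrophages, averaged 10.55 CPM in injured MRL tendons.

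Lgmn, on chromosome 12 from 102394084 to 102439813, cuts after asparagine and processes other cathepsins to their mature forms. Its levels were 197.7, 176, 172.2 and 66.06 CPM in the uninjured C57 replicates 1 to 4, and 402.4 (BI-181), 558.3 (BI-183), 389 (BI-184) and 559.3 CPM (BI-185) in the injured libraries. All injured libraries lay above all uninjured ones. The log2 fold change of 1.60 ± 0.33 (SE) fell short of the threshold (adjusted p = 0.0578, edgeR), and was 1.36 (adjusted p = 0.0052) without C57 uninjured replicate 4. In MRL, Lgmn was at 124.1, 174.9, 194.9 and 163.1 CPM in the uninjured replicates and at 374.4 (BI-270), 227 (BI-272), 372.5 (BI-274) and 244 CPM (BI-275) in the injured libraries. The groups were separate. The log2 fold change was 0.90 ± 0.21 (adjusted p = 0.0255, edgeR), below the size required, and without BI-272 it was 1.02 and was called.

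The exopeptidases Ctsh and Ctsz were examined next. Ctsh, on chromosome 9 from 90054152 to 90076089, is an aminopeptidase. It was at 112.3, 80.85, 86.08 and 74.74 CPM in the uninjured C57 replicates and at 156.2 (BI-181), 270.3 (BI-183), 203.4 (BI-184) and 234.9 CPM (BI-185) in the injured libraries. The groups did not overlap, and Ctsh rose by 1.24 ± 0.21 (log2, SE; adjusted p = 0.0365, edgeR), with the limits given above. In MRL it was at 78.4, 109.3, 102.4 and 154.8 CPM before and at 200.3, 231.8, 210.7 and 226.7 CPM after injury, with MRL uninjured replicate 4 the nearest to the injured libraries. The log2 fold change there, 0.97 ± 0.20 (adjusted p = 0.0134, edgeR), lay just under the required size, and without MRL uninjured replicate 4 it was 1.18 and was called. Ctsz, on chromosome 2 from 174427493 to 174439039, is a carboxypeptidase. It ranged from 84.95 to 187.3 CPM before and from 224.5 to 392.6 CPM after injury in C57 (log2 fold change 0.93 ± 0.27, adjusted p = 0.163, edgeR). In MRL it ranged from 165.7 to 247.7 CPM before and from 313.6 to 351.2 CPM after injury (0.66 ± 0.15, adjusted p = 0.0225), again without overlap but below the required size. The gene Nelfcd overlaps the Ctsz locus on the opposite strand.

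Ctsb, on chromosome 14 from 63122462 to 63145923, is an abundant endopeptidase and carboxypeptidase. It was at 1244, 1160, 1231 and 577.7 CPM in the uninjured C57 replicates and at 1328 (BI-181), 2865 (BI-183), 2048 (BI-184) and 2299 CPM (BI-185) in the injured libraries. BI-181 was close to the uninjured replicates 1 to 3. The log2 fold change was 0.97 ± 0.31 (adjusted p = 0.196, edgeR), 0.78 without uninjured replicate 4 and 1.17 without BI-181. In MRL, Ctsb ranged from 1080 to 1473 CPM before and from 1449 to 1940 CPM after injury, and here the groups overlapped (0.44 ± 0.17, adjusted p = 0.125).

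Ctsd, Ctsl and Ctsa did not pass the test in either strain. Ctsd, on chromosome 7 from 142375911 to 142388038, is the main aspartic protease of the lysosome. It was at 301.8, 276.1, 321.5 and 554.8 CPM in the uninjured C57 replicates and at 420.4, 449.2, 477.6 and 518.2 CPM in the injured C57 libraries, so replicate 4 alone lay above them all (0.31 ± 0.26, adjusted p = 0.616, edgeR). Without that replicate the log2 fold change was 0.60 (adjusted p = 0.0412), below the required size. In MRL, Ctsd ranged from 238.7 to 308 CPM before and from 233.2 to 380.7 CPM after injury (0.23 ± 0.17, adjusted p = 0.415). Ctsl, on chromosome 13 from 64359337 to 64370890, ranged from 556.1 to 974.8 CPM before and from 592.2 to 974.6 CPM after injury in C57 (-0.19 ± 0.24, adjusted p = 0.761, edgeR), and its log2 fold change was -0.34 without uninjured replicate 4 and -0.07 without BI-181. In MRL its range was 916.7 to 1127 CPM before and 685.6 to 1080 CPM after injury (-0.28 ± 0.18, adjusted p = 0.334). The groups of Ctsl overlapped in both strains. Ctsa, on chromosome 2 from 164832873 to 164841032, protects lysosomal β-galactosidase and neuraminidase besides its peptidase activity. It was at 321.4, 321.9, 381.8 and 1134 CPM in the uninjured C57 replicates and between 291.4 and 497.7 CPM in the injured ones. Its log2 fold change of -0.54 ± 0.44 (adjusted p = 0.602, edgeR) became 0.14 without replicate 4, so the sign rested on that library. In MRL it ranged from 328.5 to 415.1 CPM before and from 193.3 to 460.7 CPM after injury (-0.08 ± 0.23, adjusted p = 0.857). Neurl2 and Pltp overlap the Ctsa locus and Gm49369 overlaps Ctsd. Other genes also overlap Ctsb (Fdft1), Ctsc (Gm26522), Ctsl (Gm47123 and Gm49230) and Ctss (Hmgb1-ps5). Gm49369, Gm49230 and Hmgb1-ps5 lie on the same strand as the protease they overlap, where no strand setting separates the reads. The other overlaps are on opposite strands, and the strand setting of the counting is not given in the sources used here. Reads shared between any of these proteases and the genes that overlap them are therefore uncertain.

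To compare genes with each other, CPM were divided by the length of the merged exons in kb. This length merges all annotated transcripts: 6489 bases from 7 for Ctsl, 6051 from 3 for Ctsb and 1358 from 2 for Ctss. The transcripts in use were not measured, so the order between genes depends on this divisor. In undivided CPM at 7 dpi, Ctsb averaged 2135 and Ctss 663.3 in C57, and 1704 and 540.4 in MRL. By this measure, Ctsb had the highest level of the 10 genes in uninjured tendons, at 174.1 ± 52.7 CPM per kb (SD, n = 4) in C57 and 208.5 ± 28.8 in MRL. In C57 it led Ctsd in 3 of 4 libraries. In MRL it led Ctsl in 4 of 4. Ctss ranked 7 in both strains, at 92.3 ± 31.5 CPM per kb in C57 and 74.2 ± 13.2 in MRL. The order in uninjured C57 rested in part on replicate 4. From the other 3 libraries, an alternative chosen after seeing the data, Ctsb stayed first (200.3 ± 7.41), Ctsl and then Ctsd followed (141.9 ± 8.72 and 127.5 ± 9.68), Ctss ranked 6 (107.8 ± 6.55), and Ctsa, ranked 4 with all libraries, ranked 8 (72.5 ± 7.36). At 7 dpi Ctss had the highest mean, at 488.4 ± 127 CPM per kb in C57, where it exceeded Ctsb in 4 of 4 libraries, and 398 ± 178.7 in MRL, where it exceeded Ctsk in only 2 of 4. The next genes were Ctsb and Ctsk in C57 (352.9 ± 105.3 and 299.7 ± 114) and Ctsk and Ctsb in MRL (315.9 ± 44.1 and 281.7 ± 40.1). Ctsc was the lowest before injury, at 7.75 ± 1.56 CPM per kb in C57 and 4.40 ± 1.46 in MRL, below Ctsh in 4 of 4 libraries of each strain. After injury it was above Ctsh in each injured C57 library (54.7 ± 10.9 against 48.1 ± 10.8) and below it in each injured MRL library (32.6 ± 11.7 against 48.3 ± 3.22). Neighbours in the middle of the order, such as Lgmn and Ctsd after injury, exchanged places between libraries.

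**Figure D3:**
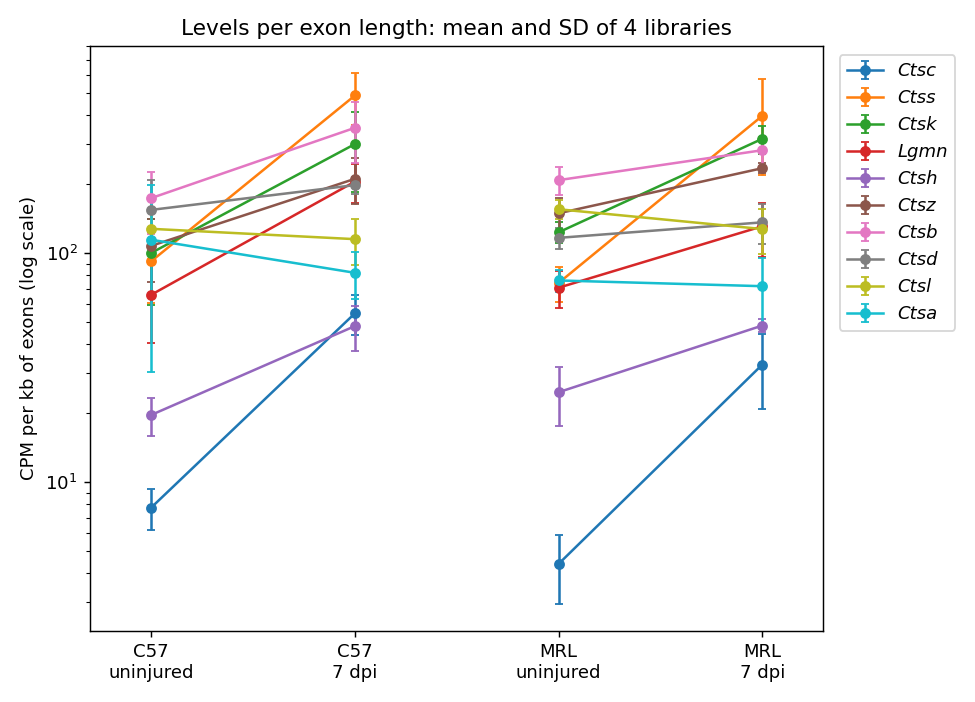
Mean level of each protease gene in CPM per kb of merged exons (log axis), with the SD of 4 libraries, joined from uninjured to 7 dpi within each strain. Ctss moves from rank 7 of the 10 genes to the highest mean in both strains, although in MRL it exceeded Ctsk in only 2 of 4 injured libraries. Ctsc is the lowest gene before injury in both.

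The responses of the proteases were next compared between strains. None of the 9 genes other than Ctsc passed the interaction of strain and injury (edgeR over 16 libraries, adjusted p-values from 0.469 to 0.997; none with an unadjusted p under 0.05, and none by DESeq2), and 0% of the 15947 genes tested did (1939 had an unadjusted p under 0.05, and DESeq2 called 221). The largest difference was that of Lgmn, whose increase was smaller in MRL by 0.76 ± 0.40 (log2, SE; adjusted p = 0.469), with a 95% interval of the difference in response from -1.55 to 0.03. For Ctss the difference was 0.02 ± 0.46, with an interval from -0.89 to 0.92. For Ctsk it was -0.23 ± 0.45, from -1.10 to 0.65. For Ctsc, given without a test, it was 0.07 ± 0.38.

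In uninjured tendons none of the 9 genes other than Ctsc was called between the strains (edgeR, adjusted p-values from 0.672 to 0.955; 0 with an unadjusted p under 0.05; none by DESeq2), where 0% of the 14055 genes tested were called (1106 had an unadjusted p under 0.05, and DESeq2 called 103). Ctsc, given without a test, was at 25.6 ± 8.48 CPM in MRL against 45.0 ± 9.04 CPM in C57 (SD, n = 4; log2 fold change -0.84 ± 0.26, SE). The highest MRL library, at 36.17 CPM, exceeded only C57 uninjured replicate 4, at 36.06 CPM, and without that replicate, which holds the epidermal transcripts, the C57 range was 43.12 to 57.59 CPM and did not overlap with MRL. At 7 dpi none of the 9 genes was called between the strains (2 with an unadjusted p under 0.05, none by DESeq2), against 3.43% of the 14626 genes tested. In Ctsd and Lgmn all 4 injured MRL libraries lay below all 4 injured C57 libraries, as did 7.58% of all genes. Ctsd was at 320.7 ± 63.3 CPM in MRL and 466.3 ± 41.7 CPM in C57 (-0.57 ± 0.19, adjusted p = 0.128, edgeR, and -0.60 without BI-181). Lgmn was at 304.5 ± 80.0 CPM in MRL and 477.3 ± 94.3 CPM in C57 (-0.68 ± 0.24, adjusted p = 0.139, and -0.74 without BI-181). Ctsc, without a test, was also lower in each injured MRL library (189.5 ± 67.7 CPM) than in each injured C57 library (317.4 ± 63.4 CPM). For Ctsk, Ctsh and Ctsz the injured groups overlapped, and MRL was at 1.03-fold, 0.983-fold and 1.09-fold of C57. The reads of both strains were mapped to GRCm38, the sequence of C57BL/6J, so a difference in mapping and a difference in expression between strains cannot be told apart.

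The other genes of the lysosome were counted by the same rule, by which 0.908% of all genes tested were called higher in C57 and 5.25% in MRL. Of 8 other cathepsins and lysosomal peptidases tested, 1 was called in each strain, the aspartic protease gene Napsa, which averaged 0.30 CPM before and 9.37 CPM after injury in C57 (4.92 ± 0.92, adjusted p = 0.0467, edgeR) and 0.46 and 15.7 CPM in MRL (5.05 ± 0.93, adjusted p = 0.00825). The uninjured means of Napsa were near the floor, so it could pass the expression filter only with the injured libraries. Such a filter favours a rise among the genes called. In C57 the count was 1 without uninjured replicate 4 and 0 when any 1 of the other 7 C57 libraries was left out. In MRL the count was 2 of 9 without any 1 of the uninjured replicates or BI-272, and DESeq2 called 2 higher and 1 lower of 13. Without BI-274, 1 of the 8 was called higher and 1 lower. The median log2 fold change of the 8 genes was 0.20 in C57 and 0.12 in MRL. The cysteine cathepsin gene Ctsf averaged 181.1 and then 95.4 CPM in C57 (-0.97 ± 0.21, adjusted p = 0.0645, edgeR) and 276.8 and then 126.8 CPM in MRL (-1.12 ± 0.39, adjusted p = 0.0897). Of 34 glycosidases and lipid hydrolases, none was called in C57 and Gusb and Acp5 were called in MRL, by 1.22 ± 0.19 (adjusted p = 0.00409, edgeR) and 2.45 ± 0.60 (adjusted p = 0.0284). The 2 calls of 34 in MRL were close to the 5.25% of all genes called higher there. The MRL count was 1 without any 1 of the uninjured replicates, BI-272 or BI-275. In C57, edgeR called 1 with RLE factors or total counts and 2 with all 16 libraries in one fit. DESeq2 called 3 of the 34 higher and 1 lower in C57. Their median log2 fold changes were 0.29 in C57 and 0.19 in MRL.

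Of 30 lysosomal membrane proteins and proton pump subunits, 2 were called higher in C57 and 4 in MRL, against 0.908% and 5.25% of all genes tested. Cd68, a glycoprotein of macrophage lysosomes, rose by 2.56 ± 0.31 in C57 (adjusted p = 0.0121, edgeR) and by 1.83 ± 0.27 in MRL (adjusted p = 0.00331). Slc11a1, a metal transporter of phagosomes, rose by 2.21 ± 0.42 in C57 (adjusted p = 0.0484, edgeR) and by 2.51 ± 0.39 in MRL (adjusted p = 0.00419). Laptm5, of leukocyte lysosomes, and the tetraspanin Cd63 rose in MRL, by 1.64 ± 0.25 and 1.06 ± 0.22 (adjusted p = 0.00409 and 0.0152, edgeR). Without C57 uninjured replicate 4, 4 of the 30 were called in C57. The C57 count was 0 without uninjured replicate 1, uninjured replicate 3 or BI-185, and 1 without uninjured replicate 2, BI-181, BI-183 or BI-184. DESeq2 and the fit of all 16 libraries each called 4 there, and in MRL leaving out any 1 library gave between 3 and 5. None of 13 genes for the sorting of lysosomal enzymes was called in either strain. None of the 4 MiT transcription factor genes, which govern lysosomal genes, was called: Tfeb had log2 fold changes of 0.33 in C57 and -0.15 in MRL, Tfe3 of 0.10 and 0.54, Mitf of 0.37 and -0.44, and Tfec of 2.19 and 2.13 at mean levels of at most 4.74 CPM (adjusted p-values from 0.0597 to 0.86, edgeR).

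The inhibitors of cysteine proteases were examined beside their targets. Of 8 tested by edgeR, none was called in C57 and Cstb was called in MRL, where 5.25% of all genes were called higher. In C57, 1 was called higher and 1 lower without uninjured replicate 4, and 1 higher with all 16 libraries in one fit. DESeq2 called 2 higher and 1 lower of 18 in C57, and 2 higher of 18 in MRL. The MRL call was not made with all 16 libraries in one fit, and 1 inhibitor was called lower there without BI-274. Cstb, the cytosolic cystatin B, averaged 99.2 CPM in uninjured and 294 CPM in injured MRL tendons (1.58 ± 0.25, adjusted p = 0.00466, edgeR), and 190.8 and 156 CPM in C57 (-0.36 ± 0.59, adjusted p = 0.823). Cst3, the secreted cystatin C, had means of 8817 and 5128 CPM in C57 (-0.83 ± 0.34, adjusted p = 0.301) and of 9418 and 5536 CPM in MRL (-0.76 ± 0.35, adjusted p = 0.182, edgeR). Cst7, which encodes the leukocyte inhibitor cystatin F, did not exceed 18 counts in any library.

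Macrophage markers were higher after injury in both strains. Of 18 such markers, 7 were called higher in C57 and 11 in MRL. Beside this count and those of the lists below, 0.908% of all genes tested were called higher in C57 and 5.25% in MRL. The C57 count was 15 without uninjured replicate 4, 7 without BI-181, 2 without BI-184, 1 without uninjured replicate 2 or BI-183, and 0 without uninjured replicate 1, uninjured replicate 3 or BI-185. It was 16 by DESeq2 and 13 with all 16 libraries in one fit. In MRL the count lay between 7 (without uninjured replicate 1 or BI-270) and 11 when any 1 library was left out. Their summed level ranged from 832.5 to 1937 CPM in uninjured and from 5064 to 9330 CPM in injured C57 tendons, and from 1054 to 1744 and from 4046 to 7230 CPM in MRL. No marker of the list was at 0. In the injured C57 libraries this sum and Ctss had the same order, with BI-184 highest, then BI-183, BI-185 and BI-181. Ctsc did not follow it there, with BI-183 highest, then BI-185, BI-184 and BI-181. In the injured MRL libraries Ctss and Ctsc both followed the order of the sum, with BI-270 highest, then BI-275, BI-274 and BI-272. The part of macrophages in the results was not tested. Neutrophil markers summed to at most 29.4 CPM in the injured libraries, with Elane at no more than 8 counts in any library, and lymphocyte markers to at most 10.5 CPM. None of 2 neutrophil markers tested was called by edgeR in either strain (2 of 9 by DESeq2 in MRL). Lymphocyte markers summed to at most 2.51 CPM in the uninjured libraries, so the 1 marker tested could pass the filter only with the injured ones. This lymphocyte marker was called by edgeR in MRL and not in C57. Without MRL uninjured replicate 2 or BI-272 it was not called in MRL, and DESeq2 called 1 of 10 lymphocyte markers in each strain. Of the other lists, dendritic cell markers were called in 0 of 4 genes tested in C57 (2 of 7 by DESeq2) and 2 of 3 in MRL (2 of 6 by DESeq2). The MRL count was 1 with all 16 libraries in one fit and when any 1 MRL library other than uninjured replicate 3 was left out. The sum of the endothelial markers ranged from 114.9 to 211.9 CPM in injured C57 tendons and from 17.3 to 102.5 CPM in uninjured ones, and the median log2 fold change of the 8 genes was 1.82. None of the 8 was called by edgeR, 2 were without C57 uninjured replicate 4, and 1 was without uninjured replicate 1 or with RLE factors. DESeq2 called 3 of them. In MRL their median log2 fold change was -0.27 and none was called by either tool. Their part in the results was not tested. Fibroblast markers were called higher in 2 of 8 in each strain. Their count was 1 when any 1 C57 library other than BI-181 was left out, and in MRL it was 1 without BI-272 and 0 without uninjured replicate 1, 2 or 4 or BI-270. In MRL 1 fibroblast marker was called lower without uninjured replicate 1, BI-274 or BI-275, and the median log2 fold change of the 8, 0.45, was -0.13 without BI-274. Tenocyte markers were called by edgeR in 0 of 10 in C57 (1 of 10 by DESeq2) and 1 of 10 in MRL. Epidermal markers were called by edgeR in 0 of 9 in each strain. In MRL, DESeq2 called 1 of 12 lower, and edgeR called 1 of 9 higher without uninjured replicate 1. The median log2 fold change of the epidermal markers in MRL, -1.59, was 1.92 without that replicate. Muscle markers were called in 0 of 5 in C57 (2 with all 16 libraries in one fit) and 1 of 3 in MRL, where the count was 1 without uninjured replicate 2 and 0 without any 1 of the other 7 libraries.

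**Figure D4:**
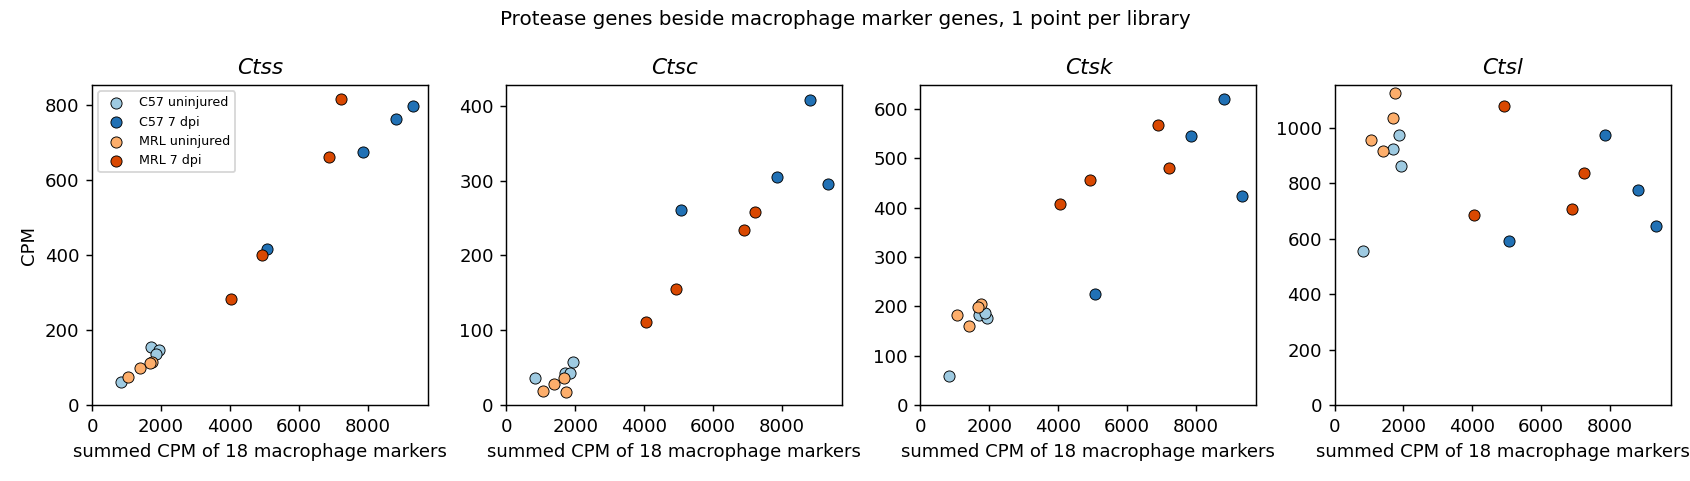
CPM of Ctss, Ctsc, Ctsk and Ctsl against the summed CPM of 18 macrophage markers, with 1 point per library, coloured by strain and injury (linear axes from 0). Ctss lies close to a single line through all 4 groups, whereas Ctsl shows no such order.

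The 10 genes were also compared by their pattern over the 16 libraries, as Pearson's r of log2 CPM. The libraries fall into uninjured and injured, so r holds the difference between these states, and it is given as a description. The most alike pairs were Ctsk and Ctsz (r = 0.959), Ctsc and Ctss (0.956), and Ctsb and Lgmn (0.933). Ctsa was negatively correlated with Ctsz (-0.505) and Ctsk (-0.456), but r was 0.139 and 0.116 without C57 uninjured replicate 4. Ctsd also moved with that library: r was 0.317 with Lgmn, 0.159 with Ctsb and 0.05 with Ctsk over 16 libraries, and 0.84, 0.714 and 0.505 without it. Ctsl and Ctsc had r = -0.414, and -0.619 without that library.

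Among all 15946 other genes, Ctsc was most like Lpxn (0.962), Fcgr3 (0.960), Fam49b (0.959), Ctss (0.956) and Ptprc, the leukocyte antigen CD45 (0.955). Ctss was most like the Fc receptor gene Fcgr3 (0.992), the lysozyme gene Lyz2 (0.984) and Tyrobp (0.972), which are genes of myeloid cells. For Ctsk the nearest were the ferritin light chain gene Ftl1 (0.982), Cyba (0.960) and Ctsz (0.959). Ctsz was nearest to Ftl1 (0.965), the collagen chaperone gene Serpinh1 (0.964) and Arpc1b (0.962). Lgmn was nearest to Emilin2 (0.957), Lsp1 (0.955) and Folr2 (0.951). Ctsb was nearest to Grn (0.935), Lgmn (0.933) and Lsp1 (0.928), and Ctsh to Tnfaip6 (0.928), Cxcr4 (0.926) and Aebp1 (0.917). The remaining 3 genes had other neighbours, with Lacc1, Hrh2 and Slc9a3r1 for Ctsd (0.912 to 0.885), Mapre2, Sgpp1 and Mapk3 for Ctsa (0.912 to 0.900), and Gstt3, Chrd and Dhx30 for Ctsl (0.900 to 0.884). Those of Ctsa rested in part on C57 uninjured replicate 4, without which r was between 0.72 and 0.776.

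**Figure D5:**
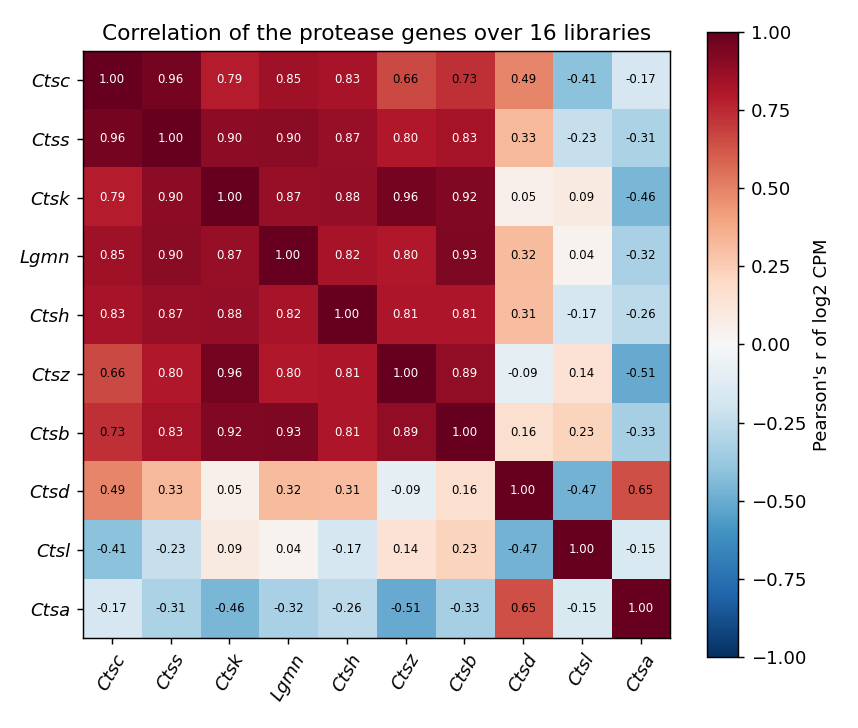
Pearson's r of log2 CPM between each pair of the protease genes over 16 libraries (colour from -1, blue, to 1, red). Ctsc, Ctss, Ctsk, Lgmn, Ctsh, Ctsz and Ctsb form a block of positive values, and Ctsl, Ctsa and Ctsd lie outside it, although Ctsd had r of 0.38 to 0.84 with these 7 genes without C57 uninjured replicate 4.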

How the data were processed

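Single-end RNA-seq of 16 flexor tendons, 4 per group, was analysed from the counts deposited by the authors, which are whole-number read counts for 49568 gene symbols without normalization or filter. The submitters' processing notes name Trimmomatic 0.36, STAR 2.5.2b, Subread 1.5.0p3 with featureCounts, DESeq2 1.14.1 and GRCm38.p5; the annotation and strand setting are not given in the sources used here. The labels name a TruSeq kit and the methods a low-input SMARTer and Nextera XT protocol with pre-amplification and no molecular identifiers, so counting error alone would understate technical error.

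Groups came from the labels. Counts were tested with edgeR 4.0.16 in R 4.3.3 (expression filter, TMM, robust quasi-likelihood fit, Benjamini-Hochberg adjustment over all genes, threshold 0.05 and absolute log2 fold change over 1; for the interaction, the threshold on p alone), on the libraries of each comparison. CPM used TMM-adjusted library sizes, log2 CPM a prior count of 2, and intervals are 95% (1.96 SE). Lengths and coordinates came from GENCODE M21. The tests were tried on simulated data first. The proteases and gene lists were chosen with earlier results of these data known. Named genes are the 10 proteases, the called genes with the largest change in each list (up to 4 per list and strain), the MiT factors, 3 cystatins and the nearest genes by pattern; other genes in the text were named after their values were seen. Alternatives were DESeq2 1.42.0, RLE factors, total counts, no filter, all 16 libraries in one fit, the replicate number as a block, and leaving libraries out.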

Additional observations from a re-analysis of the deposited data

Results flagged for a closer look

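Within groups of 4, the highest or lowest library was compared with the rest by its gap over the group's range. Of 88 groups of values examined (the 10 proteases and 12 summed lists in 4 groups of libraries each), 11 had a library far from the others, and chance gives about 1 in 20.

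For the proteases, all such values were those of the library labelled C57 uninjured replicate 4. Ctsa, at 1134 CPM, and Ctsd, at 554.8 CPM, were far above the other 3 uninjured C57 libraries, and Ctsb at 577.7 CPM, Ctsk at 59.55 CPM and Ctsz at 84.95 CPM were far below them. In the same library the summed epidermal markers were at 104100 CPM against at most 1010 CPM in the others, the tenocyte markers at 16420 CPM against at least 27780 CPM, and the skeletal muscle markers at 20.04 CPM against at most 6.25 CPM. The part of epidermal RNA in the protease values was not tested.

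In BI-181 the skeletal muscle markers summed to 57730 CPM, against at most 1770 CPM in the other injured C57 libraries. The neutrophil markers in C57 uninjured replicate 3, at 141.1 CPM, and the endothelial markers in MRL uninjured replicate 3, at 76.09 CPM, also stood apart from their groups.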

How the results depend on the processing

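The number of proteases called after injury in C57, 2 of 9, was 5 with DESeq2 and 5 with all 16 libraries in one fit, and ranged from 0 to 4 with 1 library left out. The number in MRL, Ctsc included, was 3 to 4 with 1 left out. The counts of 0 in the interaction and the strain comparisons stayed 0 in each alternative run, including the replicate block (0 genes called). Same-numbered uninjured libraries are different animals and their deviations had r between -0.262 and 0.016, so the numbers do not pair them.

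Over all genes, the number called was 155 in C57 against 909 with DESeq2, 367 with all 16 libraries and 10 to 750 with 1 left out. It was 1057 in MRL against 1808 with DESeq2 and 689 to 1260 with 1 left out. It was 0 in the interaction against 221 with DESeq2, and 0 in uninjured tendons against 103 with DESeq2 and 497 without both libraries numbered 4. It was 502 between injured strains against 1473 with DESeq2, 227 with all 16 libraries and 231 to 481 with 1 left out. The cause was not tested.

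Signs changed only for differences that were not called. For Ctsa, leaving out 1 library gave log2 fold changes that ranged from -0.73 to 0.14 in C57, -0.26 to 0.12 in MRL, -0.27 to 0.61 in the interaction, -0.82 to 0.061 between uninjured and -0.36 to 0.022 between injured strains. The ranges in the interaction were -0.25 to 0.24 for Ctss, -0.44 to 0.037 for Ctsk and -0.30 to 0.01 for Ctsl. They were -0.16 to 0.24 for Lgmn between uninjured strains, and -0.17 to 0.23 for Ctsk and -0.14 to 0.095 for Ctsh between injured strains. With total counts the interaction of Ctss was -0.072, and Ctsk, Ctsl and Ctsz between injured strains were -0.089, -0.019 and -0.014. Without both uninjured libraries numbered 4, Ctsa was at -0.30 in the interaction and 0.087 between uninjured strains, and Lgmn at -0.16 there.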
